A study of Mus musculus with 8 samples.

Results

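The genes described here are 10 that myeloid cells are known to use to restrain lymphocytes: the checkpoint ligands Cd274, Pdcd1lg2 and Cd80, the enzymes Arg1, Nos2, Ido1, Il4i1 and Ptgs2, and the cytokines Il10 and Tgfb1. They were taken by gene symbol, whatever their level, and make up 10 of the 32285 genes counted in each library. The study profiled viable single cells sorted from mouse tongue epithelium 15 days after transgene induction, in 8 droplet libraries with 2 for each of 4 groups. The N mice (the normal condition) carried Krt14-CreERT and LSL-rtTA with no effector transgene. The E mice carried in addition tetON_E6-E7, which drives the E6 and E7 oncogenes of a human papillomavirus, the Y mice tetON_YAP1S127A, a YAP transcriptional coactivator that cannot be switched off by phosphorylation at that serine, and the EY mice both. All 4 groups received tamoxifen into the tongue and doxycycline in the diet, came from shared litters and, by the methods of the study, also carried a tetON_H2B-GFP reporter. The Krt14 promoter is known for its activity in basal epithelial cells. Each group of the study comprised 2 mice, but the label of the second N library (N2) carries more than 1 animal number, so that it may pool animals. The labels give no age.

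PD-L1 and PD-L2, the products of Cd274 and Pdcd1lg2, engage the inhibitory receptor PD-1 on T cells, and CD80 binds both the activating receptor CD28 and the inhibitory receptor encoded by Ctla4. Arginase (Arg1) and inducible nitric oxide synthase (Nos2) consume the same amino acid, arginine, while Ido1 degrades tryptophan and Il4i1 oxidizes aromatic amino acids. Ptgs2, the inducible cyclooxygenase, starts the synthesis of prostaglandins, and Il10 and Tgfb1 encode secreted cytokines that dampen T cell and macrophage responses. Monocytes, macrophages, dendritic cells and neutrophils are known to induce several of these genes in inflamed tissue and in tumors.

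The matrices held 42550 cell barcodes with 511552367 UMIs (unique molecular identifiers, each counting 1 captured mRNA molecule), between 46483469 and 102427359 per library, and 25199 cells passed the limits on genes, UMIs and mitochondrial share. Cells were assigned to classes by marker genes that include none of the 10, which gave 1883 macrophages (at least 5 UMIs of C1qa, C1qb and C1qc together), 1428 other Lyz2-positive cells, 1150 neutrophils, 388 dendritic cells, 5712 lymphoid cells and 13165 epithelial cells. These classes are ranges on continuous marker levels. The median macrophage held 60 C1q UMIs, against 81 kept cells at 5 or 6 and 77 at 3 or 4 C1q UMIs, and 57 macrophages also passed the keratin limit. The median macrophage had 5 Csf1r, 0 S100a8 and 0 Cd3e UMIs, the median neutrophil had 1162 S100a8 and 0 C1qa UMIs, and the median dendritic cell had 154.5 H2-Ab1 and 1 Flt3 UMI. Epithelial Yap1 lay between 32.7 and 47.5 counts-per-million UMIs (CPM) in the 4 libraries without tetON_YAP1S127A and between 167 and 463 CPM in the 4 with it. Between 2 and 19 barcodes were shared by each of the 28 pairs of libraries. Levels below are CPM of the summed UMIs of a class in 1 library. In such a sum fewer expressing cells and less RNA per cell cannot be told apart.

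In the mouse genome (GRCm38, GENCODE M21), Cd274 (chr19:29367455-29388095) and Pdcd1lg2 (chr19:29410919-29471161) are neighbors on the plus strand, and each overlaps a gene on the opposite strand. Il4i1 (chr7:44816387-44840809, plus strand) overlaps Nup62 on its own strand and Atf5 and Tbc1d17 on the other, so that its counts are uncertain in every class. The other members are Cd80 (chr16:38455561-38496335, plus), Nos2 (chr11:78920787-78960254, plus), Arg1 (chr10:24915221-24927484, minus), Ido1 (chr8:24584136-24597009, minus), Ptgs2 (chr1:150100031-150108227, plus), Il10 (chr1:131019845-131024974, plus) and Tgfb1 (chr7:25687002-25705077, plus), and none of these overlaps another gene.

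The 10 genes came from different classes. Of the Nos2 UMIs in all kept cells, other Lyz2-positive cells held 52.2%, macrophages 18.2% and neutrophils 11.1%. Macrophages held 40.9% and other Lyz2-positive cells 34.6% of the Arg1 UMIs. Dendritic cells, the smallest of the 6 classes, held 48.0% of the Il4i1 UMIs. Lymphoid cells held more of Pdcd1lg2 (39.7%) and Il10 (37.2%) than any other class. Epithelial cells held 19.7% of Ptgs2, 19.0% of Tgfb1 and 61.5% of the 78 Ido1 UMIs. These shares pool the 4 groups, which differ in their cells, and 9700 of the 13100 Nos2 UMIs came from EY. In N, macrophages held 53.15% of Nos2, and epithelial cells held 68.8% of Ptgs2 against 8.29% in EY. In Y, macrophages held more of Pdcd1lg2 (37.5%) than lymphoid cells (31.8%).

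With each library as a block, 9 of the 10 genes could be tested between classes, and Ido1 could not. All 9 were higher in macrophages than in epithelial cells (73.4% of all tested genes were called in either direction), from 3.49 ± 0.48 (SE) on the log2 scale for Ptgs2 to 8.18 ± 0.51 for Il10. Other Lyz2-positive cells exceeded epithelial cells in 9 of 9 as well (all genes 75.1%). Dendritic cells exceeded epithelial cells in 7 of 9 (all genes 66.6%), with Arg1 and Il10 not called by edgeR, and neutrophils in 7 of 9 (all genes 77.7%), with Arg1 and Il4i1 not called by edgeR. DESeq2 called 8 of 9, in either direction, in each of these contrasts, with Il10 in addition for dendritic cells and Arg1 for neutrophils. The median of Arg1 over libraries was 0 CPM in neutrophils and 1.97 CPM in epithelial cells, so that Arg1 did not exceed epithelial cells there. Most of all genes were called in these contrasts too, so the counts are no result about the 10. Over the class contrasts the median change of all genes lay between -0.46 and 0.13 on the log2 scale.

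Within the myeloid cells the order differed by gene. Macrophages had less Nos2 than the other Lyz2-positive cells (log2 difference -1.37 ± 0.32, edgeR adjusted p 0.00336), less Cd274 (-1.09 ± 0.28, edgeR adjusted p 0.00700) and less Cd80 (-0.64 ± 0.17, edgeR adjusted p 0.00978), and the other 6 genes were not called (all genes 15%). Dendritic cells had more Il4i1 than macrophages, by 4.05 ± 0.45 on the log2 scale (edgeR adjusted p 4.66e-09). They had less Il10 (-6.00 ± 0.88), Arg1 (-5.08 ± 0.83), Nos2 (-3.51 ± 0.45), Ptgs2 (-1.96 ± 0.49) and Tgfb1 (-0.70 ± 0.15), which makes 6 of 9 called against 25.8% of all genes. The checkpoint ligands Cd274, Pdcd1lg2 and Cd80 were not called between dendritic cells and macrophages. Over all neutrophils Ido1 had 0 UMIs, Il4i1 1 UMI and Arg1 6 UMIs, against 1459 UMIs of Nos2.

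**Figure D1:**
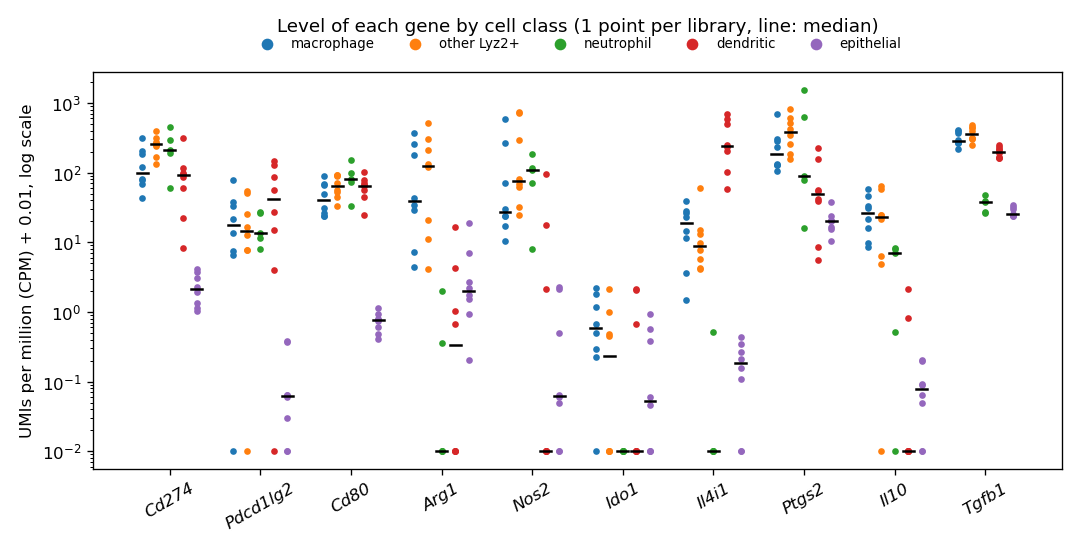
Levels of the 10 genes by cell class, as counts-per-million UMIs (CPM) plus 0.01 on a log axis, with 1 point per library that had at least 20 cells of the class and a line at the median. Of the 5 classes plotted, Il4i1 is highest in dendritic cells, the median of Arg1 is near 0 in neutrophils and dendritic cells, and the medians of Cd274, Pdcd1lg2, Cd80, Ptgs2 and Tgfb1 are lowest in epithelial cells.

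In macrophages, Cd80, Ptgs2, Nos2, Pdcd1lg2 and Cd274 were higher in libraries with the YAP transgene. These were 5 of the 9 genes that could be tested, against 3.90% of all genes called (YAP effect, the mean of Y and EY minus the mean of N and E on the log2 scale). Their increases ran from 1.44 for Cd274 to 3.11 for Pdcd1lg2 on that scale, and none of the 9 was called lower. For Cd80, Pdcd1lg2, Ptgs2 and Tgfb1, 4 of the 9, all 4 libraries with the transgene lay above all 4 without it, as 4.02% of all genes did.

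Among the checkpoint ligands, Cd80 was 23.9 and 30.7 CPM in the N macrophages, 23.6 and 26.4 in E, 67.9 and 66.9 in Y, and 89.4 and 49.5 in EY. The N and E libraries overlapped each other and every Y and EY library was higher (YAP effect 1.51 ± 0.22, edgeR adjusted p 0.0179). Pdcd1lg2 was 7.59 and 0 CPM in N, 6.55 and 13.5 in E, 78.3 and 37.7 in Y, and 33.1 and 21.9 in EY (YAP effect 3.11 ± 0.59, edgeR adjusted p 0.0321). Y1 stood above all other libraries, and the 0 UMIs of N2 allow up to 1.48 CPM (3 UMIs, counting error only). Cd274 was 68.3 and 43.5 CPM in N, 81.2 and 119 in E, 187 and 79.6 in Y, and 309.5 and 202 in EY (YAP effect 1.44 ± 0.32, edgeR adjusted p 0.0455). Y2 lay just under both E libraries, so that the libraries with and without the YAP transgene overlapped for Cd274.

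Of the enzymes, Nos2 was 30.4 and 23.8 CPM in N, 10.5 and 23.5 in E, 72.0 and 17.3 in Y, and 590.3 and 269.6 in EY. In N2, 45 Nos2 UMIs lay in 2.04% of the 49 macrophages with a Chil3 UMI, and the other 97 macrophages were at 2.23 CPM. Both EY libraries stood above all others and Y2 lay among the N and E libraries (YAP effect 2.84 ± 0.51, edgeR adjusted p 0.0273). Arg1 was 4.34 and 42.6 CPM in N, 7.21 and 29.2 in E, 374 and 34.8 in Y, and 255 and 176 in EY. Its Y2 value was below that of N2, and Arg1 did not pass edgeR's test although its estimate exceeded those of the other 8 genes (3.39 ± 0.84, edgeR adjusted p 0.0646). DESeq2 called 7 of the 9 genes for the YAP effect, Arg1 and Tgfb1 in addition to the 5 that edgeR called. The 3.90% of all genes is the share called by edgeR, and no such share is given for DESeq2. Ptgs2 was 134.5 and 105 CPM in N, 128 and 130.3 in E, 283 and 236 in Y, and 684 and 299.5 in EY. All Y and EY libraries were above the N and E libraries, which lay close together (YAP effect 1.65 ± 0.27, edgeR adjusted p 0.0229). Il4i1 was between 1.48 and 22.8 CPM in N and E and between 11.5 and 39.0 CPM in Y and EY (YAP effect 1.64 ± 0.67, edgeR adjusted p 0.226). Ido1 had between 0 and 4 UMIs in the macrophages of each library and was not tested.

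The cytokines did not pass edgeR's test in macrophages, while DESeq2 called Tgfb1. Tgfb1 was 216 and 269 CPM in N, 272 and 268 in E, 414 and 367 in Y, and 398 and 293 in EY (YAP effect 0.64 ± 0.17, edgeR adjusted p 0.0825). The libraries with and without the YAP transgene did not overlap, with EY2 nearest to the E libraries. Il10 alone of the 9 had a negative estimate, with 45.6 and 15.8 CPM in N, 57.6 and 21.4 in E, 9.76 and 8.498 in Y, and 33.6 and 31.1 in EY (-0.84 ± 0.38, edgeR adjusted p 0.266). The Y libraries were the lowest of the 8, while EY lay inside the range of N and E.

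**Figure D2:**
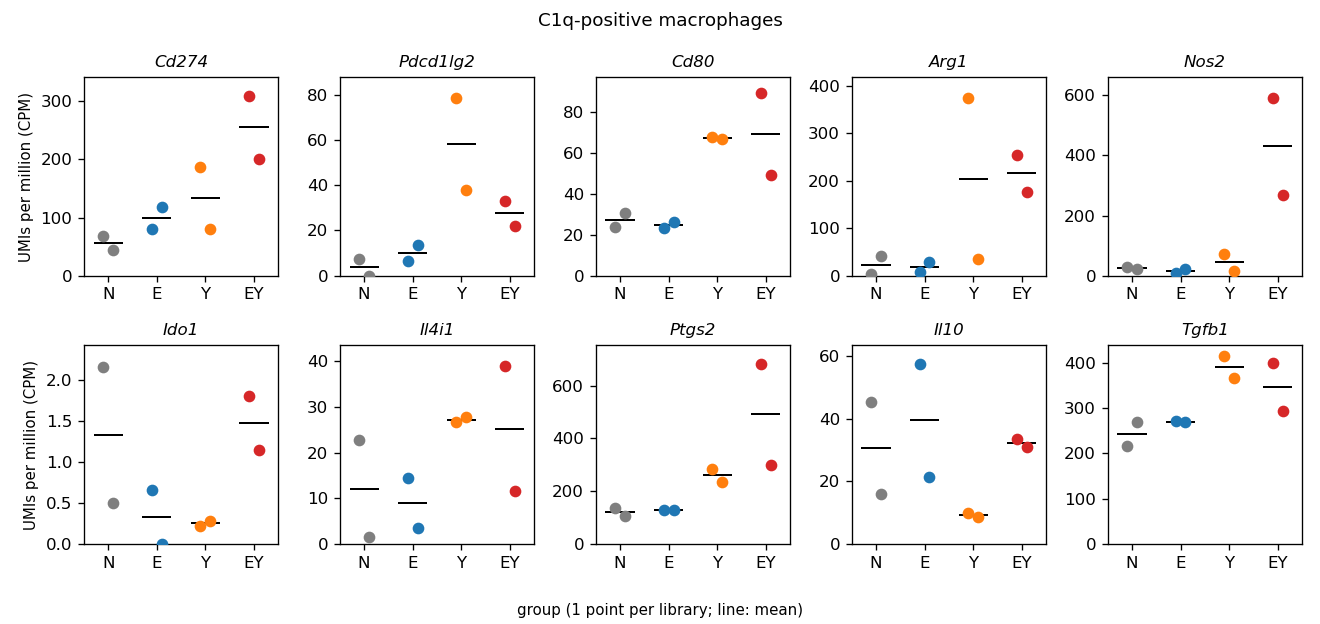
Levels of the 10 genes in C1q-positive macrophages of N, E, Y and EY tongues (y axes: counts-per-million UMIs, CPM, from 0; 1 point per library, lines at group means). Cd80, Pdcd1lg2, Ptgs2 and Tgfb1 are higher in all 4 libraries with the YAP transgene, Nos2 is highest in the EY libraries at 590.3 and 269.6 CPM, and for Arg1 the library Y2 stays at 34.8 CPM.

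Between single groups fewer of the 10 were called in macrophages. EY exceeded N for Nos2 (4.16 ± 0.73, edgeR adjusted p 0.0401) and Ptgs2 (2.19 ± 0.38, edgeR adjusted p 0.0401), 2 of 9 against 1.62% of all genes, and Cd274 was at 2.36 ± 0.46 with an edgeR adjusted p of 0.0503. Between Y and N edgeR called 0 of the 9 (all genes 0.0421%) and DESeq2 called Pdcd1lg2. Of the 9, 7 had an unadjusted edgeR p under 0.05 for Y against N, as did 881 of all 9497 genes. Between E and N edgeR called 0 of the 9 (all genes 0.0632%), with 0 at an unadjusted p under 0.05 (568 of all 9497 genes) and 0 by DESeq2. For the E6-E7 effect, the mean of E and EY minus the mean of N and Y, edgeR called 0 of 9 (all genes 0%) and DESeq2 0. For this effect 3 of the 9 (Cd274, Il10 and Nos2) had an unadjusted edgeR p under 0.05, as did 895 of all 9497 genes. For the interaction of the transgenes edgeR called 0 (all genes 0.0105%). An unadjusted edgeR p under 0.05 was found for 1 of the 9 and for 508 of all 9497 genes. DESeq2 called 1 gene for the interaction. That gene was Nos2, whose interaction was estimated at 4.10 ± 1.001 on the log2 scale (edgeR adjusted p 0.582), so that a larger effect of YAP in the presence of E6-E7 was called by DESeq2 and not by edgeR.

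The macrophage calls depended on single libraries. Leaving out 1 library gave between 0 and 6 called genes for the YAP effect, with 0 without E1 or E2, 1 without N1 (Pdcd1lg2), N2 (Cd80) or Y1 (Cd80), 2 without EY1 (Ptgs2 and Cd80), 3 without EY2 (Ptgs2, Nos2 and Cd80) and 6 without Y2. For EY against N the count was 0 without N1, N2, E1, E2 or EY1, and without EY2 it was 2 with Cd80 in place of Nos2. The estimates of the 5 genes stayed positive in all of these fits. No share of all genes called is given for these fits, so the counts show no dependence particular to these genes. The p-values measure only the spread between libraries.

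The macrophages themselves differed between groups. The share of macrophages with a UMI of Chil3, a gene of inflammatory monocytes and alternatively activated macrophages, was 8.33% and 33.6% in N, 8.99% and 39.5% in E, 88.3% and 44.0% in Y, and 93.7% and 80.1% in EY. The 8 monocyte markers, which include Chil3, did not rise in Y as a sum. They summed to 7158 and 8205 CPM in N, 6501 and 10010 in E, 6874 and 5396 in Y, and 12200 and 9518 in EY. The 13 dendritic markers, among them the MHC class II genes H2-Ab1 and H2-Eb1, summed to 8891 and 8883 CPM in EY. In the other libraries they summed to between 12510 and 17950 CPM, and the part of the class II genes was not separated. The 15 neutrophil markers summed to between 324 and 614.5 CPM in the N and E macrophages, 1850 and 986 CPM in Y, and 7680 and 7520 CPM in EY, with 2 to 6 of the 15 at 0 in N and E and 0 to 2 in Y and EY. The most abundant of them, S100a8, reached 4578 and 3745 CPM in EY. The part of these cells and transcripts in the macrophage results was not tested. In macrophages without a Chil3 UMI, a selection made after the data were seen, Cd80 was between 21.3 and 29.1 CPM in N and E and between 50.2 and 142 CPM in Y and EY. In those cells edgeR called 0 of 9 genes, with 7 at an unadjusted p under 0.05, against 0.0326% of all 9206 genes tested, of which 908 had an unadjusted p under 0.05. The YAP effects were 1.13 for Cd80 (edgeR adjusted p 0.233), 0.75 for Ptgs2 (0.267), 2.67 for Pdcd1lg2 (0.417), 2.54 for Nos2 (0.411) and 1.10 for Cd274 (0.471). EY1 had 9 such cells, under the minimum of 20, and did not enter this fit.

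In single cells, the share of macrophages with at least 1 Nos2 UMI was 9.38% and 2.06% in N, 6.18% and 7.41% in E, 20.5% and 5.63% in Y, and 59.4% and 31.9% in EY. The exact 95% binomial intervals of the EY shares, 50.9 to 67.6% and 24.9 to 39.6%, lay above those of all N and E libraries, the highest of which ended at 17.05%. These intervals cover counting error only. After each cell was thinned to 2000 UMIs, which left out 1 shallower cell, the shares were 41.3% and 23.9% in EY, 9.575% and 1.80% in Y, and 0.889 to 3.96% in N and E. Epithelial cells, with a median of 15268 UMIs against 10985 in macrophages, had a Nos2 UMI in 0 to 0.0734% of N and E cells, in 0.449% and 0.0967% of Y cells and in 2.70% and 0.781% of EY cells. For Cd274 the thinned shares of macrophages were 11.4% and 8.62% in N, 15.6% and 18.95% in E, 29.6% and 15.1% in Y, and 43.4% and 31.1% in EY. Before thinning they were 26.0% and 26.0%, 38.2% and 46.9%, 71.6% and 44.7%, and 87.4% and 53.0%.

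Arg1 and Nos2, which draw on the same substrate, were seen together in single macrophages. In EY1 a Nos2 UMI was seen in 76.5% of the 51 macrophages with an Arg1 UMI and in 50.0% of those without. The pair of shares was 40.9% and 28.7% in EY2, with 44 Arg1-positive cells, and 30.2% and 13.4% in Y1, with 324. Cd274 and Pdcd1lg2 also met in single cells. In Y1, 262 of the 552 macrophages with a Cd274 UMI had a Pdcd1lg2 UMI (47.5%), against 28.3% of those without. The pair of shares was 28.9% and 23.95% in Y2, 29.6% and 22.2% in EY1, and 12.5% and 5.13% in EY2. In N and E between 0 and 8 macrophages per library had a Pdcd1lg2 UMI. Depth was not held constant in these shares, and in Y1 the Arg1-positive cells had a median of 10556 UMIs against 12352 in the others.

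The sequences before the transcription start are shown for Pdcd1lg2, Cd80 and Ptgs2, which rose together in macrophages and whose windows overlap no protein-coding exon. RefSeq (GRCm38.p6) gave an entry for 6 of the 10 genes (Cd274, Pdcd1lg2, Cd80, Il4i1, Ptgs2 and Tgfb1). Each line holds the 250 bases before the start, 5′ to 3′ on the plus strand, with motif matches in capitals. The windows are chr19:29410669-29410918 for Pdcd1lg2, chr16:38458683-38458932 for Cd80, which lies inside the longer GENCODE gene, and chr1:150099781-150100030 for Ptgs2.
Pdcd1lg2: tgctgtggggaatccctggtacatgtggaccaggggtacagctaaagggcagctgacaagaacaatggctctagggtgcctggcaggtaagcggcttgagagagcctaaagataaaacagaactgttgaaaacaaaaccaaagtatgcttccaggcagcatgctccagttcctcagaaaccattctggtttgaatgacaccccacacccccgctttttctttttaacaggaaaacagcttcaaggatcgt
Cd80: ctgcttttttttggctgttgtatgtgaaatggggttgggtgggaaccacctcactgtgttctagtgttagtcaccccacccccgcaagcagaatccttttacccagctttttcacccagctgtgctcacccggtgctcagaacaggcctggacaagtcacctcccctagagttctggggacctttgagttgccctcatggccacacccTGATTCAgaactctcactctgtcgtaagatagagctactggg
Ptgs2: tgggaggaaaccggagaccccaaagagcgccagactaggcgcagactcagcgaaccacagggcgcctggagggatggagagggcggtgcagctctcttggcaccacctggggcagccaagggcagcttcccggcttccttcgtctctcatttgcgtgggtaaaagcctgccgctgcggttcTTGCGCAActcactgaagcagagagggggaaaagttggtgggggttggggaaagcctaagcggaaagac
The 9 motifs searched on both strands were the interferon gamma-activated site (TTCNNNGAA, in 7.02% of all 32851 promoter windows), kappaB (1.41%), TEAD (GGAATG, 12.6%), AP-1 (TGANTCA, 6.75%), the ISRE core (2.98%), the E-box (CACGTG, 6.02%), the TATA box (TATAAA, 12.4%), the core of the CRE (TGACG, 17.8%) and CEBP (TTGCNNAA, 9.56%). Over the 6 windows there were 2 matches, which did not overlap another motif. Cd80 held the AP-1 letters from position -42 relative to the start, and Ptgs2 the CEBP letters from position -69. A match describes the letters only.

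In the other Lyz2-positive cells, which had little C1q, Nos2 was again higher with the YAP transgene. Nos2 was 69.6 and 24.2 CPM in N, 31.6 and 62.8 in E, 290.4 and 80.0 in Y, and 727 and 745 in EY. Each Y and EY library was above all N and E libraries, with Y2 close to N1 (YAP effect 3.30 ± 0.46, edgeR adjusted p 0.0117). Nos2 was the 1 gene of 9 called, against 1.83% of all genes. It was also the 1 called for EY against N (4.55 ± 0.68, edgeR adjusted p 0.0184; all genes 1.11%), and that call was lost without N1 (edgeR adjusted p 0.0720), N2 (0.0928), EY1 (0.0618) or EY2 (0.0738). The YAP effect of Nos2 was lost without N2 (edgeR adjusted p 0.0599), where 1 other gene was called. No share of all genes called is given for these reduced fits. The median of these cells had 8 S100a8 UMIs, and S100a8 ranged from 102 to 4860 CPM in N and E, was 6097 and 1753 CPM in Y, and 30310 and 32150 CPM in EY. Its part in the Nos2 result was not tested.

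The other members varied in these cells without passing edgeR's test for the YAP effect, while DESeq2 called Il10. DESeq2 also called Ptgs2 for EY against N, and Nos2 and Pdcd1lg2 for Y against N. For Y against N edgeR called 0 of 9 (all genes 0.0704%), with 3 at an unadjusted p under 0.05 (502 of all 7099 genes). Cd274 was between 131 and 311 CPM in N and E and between 165 and 397 CPM in Y and EY (YAP effect 0.40 ± 0.24, edgeR adjusted p 0.434). Its E and EY libraries (265 to 397 CPM) all lay above its N and Y libraries (131 to 245.5 CPM). The share of all genes without such overlap was not counted. For the E6-E7 effect edgeR called 0 of the 9 and 0 of all 7099 genes. An unadjusted edgeR p under 0.05 was found for 3 of the 9 and for 681 of all genes. Arg1 was 4.09 and 307 CPM in N, 21.1 and 11.3 in E, 518 and 132 in Y, and 121 and 210.2 in EY. N2 thus exceeded 3 of the 4 libraries with the YAP transgene (YAP effect 2.36 ± 0.77, edgeR adjusted p 0.154). Il10 was 0 and 24.2 CPM in N, 6.32 and 4.83 in E, 21.4 and 65.0 in Y, and 24.6 and 57.4 in EY (YAP effect 2.17 ± 0.64, edgeR adjusted p 0.119). This estimate is positive, whereas that of Il10 in macrophages is negative, and the difference between the classes was not tested.

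In dendritic cells, the antigen-presenting cells that prime T cells, Cd274, Pdcd1lg2, Il4i1 and Ptgs2 were higher in EY than in N. These were 4 of the 6 genes that could be tested, against 4.70% of all genes. Pdcd1lg2 was 0 and 3.95 CPM in N, 14.9 and 27.6 in E, 85.7 and 57.1 in Y, and 127 and 146 in EY. The groups were ordered N, E, Y and EY without overlap, while E against N alone did not pass the test (edgeR adjusted p 0.0928; EY against N 5.46 ± 0.55 on the log2 scale, edgeR adjusted p 0.00102). Cd274 was 8.30 and 22.4 CPM in N, 95.65 and 59.5 in E, 86.5 and 98.9 in Y, and 314 and 117 in EY. E and Y overlapped, with N below and EY above both (EY against N 3.69 ± 0.50, edgeR adjusted p 0.00265).

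The enzymes of dendritic cells followed. Il4i1 was 102 and 58.6 CPM in N, 229.6 and 687 in E, 207 and 251 in Y, and 587 and 496 in EY. N was below all other libraries, and E and EY overlapped (EY against N 2.94 ± 0.46, edgeR adjusted p 0.00528). Ptgs2 was 5.53 and 39.5 CPM in N, 55.3 and 8.503 in E, 42.45 and 56.1 in Y, and 157 and 227.5 in EY. Both EY libraries stood above the other 6, which overlapped (EY against N 2.80 ± 0.65, edgeR adjusted p 0.0312). Cd80 was between 24.9 and 44.8 CPM in N and between 56.1 and 103 CPM in the other groups, and its EY against N estimate did not pass the test (1.28 ± 0.38, edgeR adjusted p 0.0841). Tgfb1 was between 160.1 and 247.5 CPM in all 8 libraries (YAP effect 0.14 ± 0.16, edgeR adjusted p 0.738).

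Both transgenes had called effects in dendritic cells. The YAP effect was called for Pdcd1lg2 (3.61 ± 0.35, edgeR adjusted p 0.000691) and Cd274 (1.98 ± 0.33, edgeR adjusted p 0.00921), 2 of 6 against 2.90% of all genes. The E6-E7 effect was called for Il4i1 (1.96 ± 0.31, edgeR adjusted p 0.0150), Cd274 (1.71 ± 0.33, edgeR adjusted p 0.0352) and Pdcd1lg2 (1.84 ± 0.37, edgeR adjusted p 0.0360), 3 of 6 against 1.71% of all genes. Between single groups, Y exceeded N for Pdcd1lg2 (4.44 ± 0.53, edgeR adjusted p 0.00802; 1 of 6, all genes 0.725%). E exceeded N for Il4i1 (2.56 ± 0.45, edgeR adjusted p 0.0287; 1 of 6, all genes 0.831%). These contrasts share libraries and are not independent of each other.

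**Figure D3:**
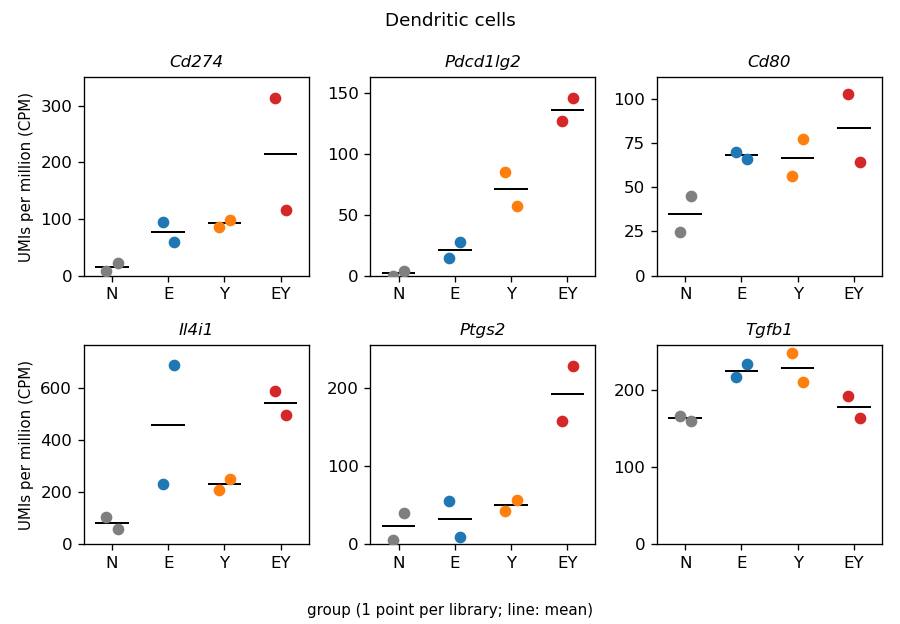
Levels of the 6 testable genes in dendritic cells of N, E, Y and EY tongues (y axes: counts-per-million UMIs, CPM, from 0; 1 point per library, lines at group means). Pdcd1lg2 is ordered N, E, Y and EY without overlap, Il4i1 is lowest in N and reaches 687 CPM in E2, and Ptgs2 is high in EY at 157 and 227.5 CPM.

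Dendritic cells were few, 23 to 81 per library, and several calls were lost without EY1. Without EY1, 1 gene, Pdcd1lg2, was called both in the YAP effect and between EY and N, and 0 genes in the E6-E7 effect. The E6-E7 count also fell to 0 without N2 and to 1 (Il4i1) without N1. H2-Eb1, an MHC class II gene of these cells, was at 336 CPM in E2 and 174 CPM in Y2 against 4423 to 5735 CPM in the other libraries. It is part of the class II limit that defined these cells, so that the limit may have selected them differently there, which was not tested. The EY against N count was 4 without E2 and 5 without Y2, and the YAP effect count 3 without either. No share of all genes called is given for the fits with a library left out.

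The mix of dendritic cells moved with the groups. Ccr7 and Fscn1 mark dendritic cells that mature and migrate to lymph nodes, and a UMI of either was found in 2.78% and 8.64% of the N dendritic cells, 28.3% and 17.4% in E, 32.0% and 33.3% in Y, and 64.0% and 48.15% in EY. In the cells that had one, Il4i1 was between 672 and 2962 CPM in every library, and in the cells without it was between 5.68 and 58.9 CPM. In the cells without, Il4i1 was 51.4 and 5.68 CPM in N, 58.9 and 13.8 in E, 8.95 and 35.3 in Y, and 7.13 and 30.6 in EY, so that the groups overlapped. In E2, the library with the highest Il4i1, 4 cells with a Ccr7 or Fscn1 UMI held 318 of the Il4i1 UMIs and the other 19 cells held 5. Cd274 in the cells without was 8.57 and 9.94 CPM in N, 41.2 and 33.1 in E, 52.6 and 12.3 in Y, and 64.2 and 40.8 in EY. There N stayed below the other 6 libraries. N1 had 1 cell with such a UMI and EY1 9 cells without, so no test was made within these subsets.

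Neutrophils were absent from some libraries under the limit of 1000 genes per cell, with 0 in N1 and E1 and 9 in Y2, so that no test was made at that limit. Ptgs2 was at 627 CPM in N2 and 1514 CPM in E2, and at 88.1 CPM in Y1 and 78.8 and 15.8 CPM in EY. Nos2 was at 71.7 CPM in N2 and 7.93 CPM in E2, and at 110.0 CPM in Y1 and 188 and 115 CPM in EY. The value of N2 rests on 8 UMIs in 23 cells.

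With a limit of 200 genes, which suits the low RNA content of neutrophils, 7 libraries had at least 20 of these cells (38 to 751), while N1 had 14 and was not fitted. In this fit Ptgs2 was lower and Nos2 higher with the YAP transgene. Ptgs2 was 1281 CPM in N2, 767 and 1689 in E, 100 and 96.8 in Y, and 79.4 and 23.2 in EY. Y and EY were below N2 and E without overlap (YAP effect -3.67 ± 0.42, edgeR adjusted p 0.00125). Nos2 was 17.1 CPM in N2, 0 and 6.65 in E, 104.9 and 20.7 in Y, and 181 and 123 in EY. All 4 lay above the other 3, although Y2, on 3 UMIs, was close to N2, on 8 (YAP effect 4.19 ± 0.68, edgeR adjusted p 0.00404). These 2 of 6 tested genes stand against 8.07% of all genes. DESeq2, run after the data were seen, called the same 2. Without Y1 edgeR called neither, but that fit called no gene at all, so the loss is not particular to these 2. The sign for Ptgs2 is opposite to that in macrophages, where it rose, and this difference was not tested.

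The ligands in neutrophils did not pass the test at 200 genes. Cd274 was 368 CPM in N2, 641 and 465.5 in E, 198 and 214 in Y, and 206 and 64.0 in EY (YAP effect -0.97 ± 0.37, edgeR adjusted p 0.129). Every Y and EY value was under those of N2 and E. Other genes of neutrophils moved with the groups as well, and their part in the Ptgs2 and Nos2 results was not tested. Csf3r, the receptor of the granulocyte growth factor, was between 1094 and 1583 CPM in N and E and between 90.0 and 539 CPM in Y and EY, and Il1b between 19420 and 25230 CPM and between 1738 and 10860 CPM. Retnlg, a neutrophil marker, was between 4467 and 6331 CPM in N and E and between 19010 and 26740 CPM in Y and EY.

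**Figure D4:**
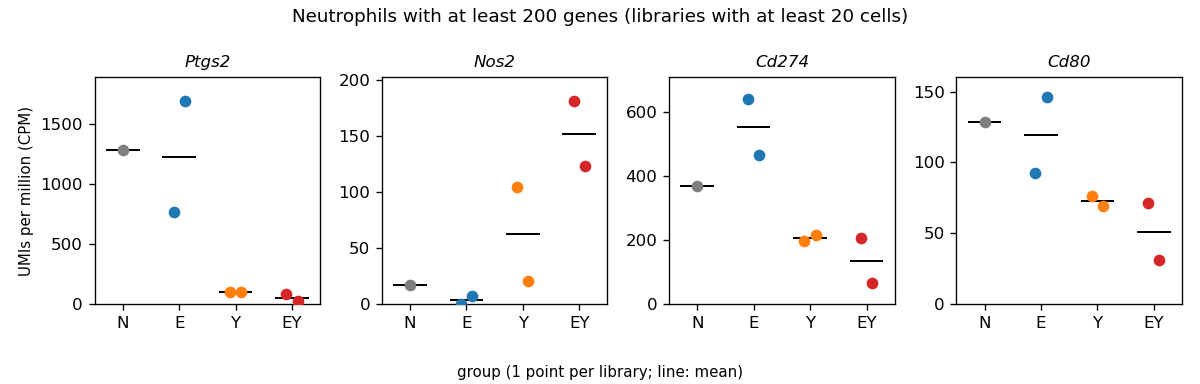
Ptgs2, Nos2, Cd274 and Cd80 in neutrophils with at least 200 genes (y axes: counts-per-million UMIs, CPM, from 0; 1 point per library with at least 20 neutrophils, so N has 1 point; lines at group means). Ptgs2 is at 767 to 1689 CPM in N and E and at 23.2 to 100 CPM in Y and EY, and Nos2 runs the other way.

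In epithelial cells, the class that the Krt14 promoter targets, the members were low and mostly without called change. Ido1 was the 1 gene of 7 called for the YAP effect (5.45 ± 1.32, edgeR adjusted p 0.0426). With 14.5% of all genes called, this count is no result about the 7. Ido1 passed the low-count filter only through Y1 and EY2, where it was highest, so the call is no support for a rise. The Ido1 UMIs numbered 0 and 0 in N, 2 and 0 in E, 23 and 1 in Y, and 1 and 21 in EY. A single Y1 cell held 22 of the 23 UMIs, and in EY2 8 cells held the 21 UMIs, 10 of them in 1 cell. The call was lost without N1, N2, E1, E2, Y1 or EY2. Nos2 was at 4.72 ± 1.29 for the YAP effect (edgeR adjusted p 0.0503), and 47 of the 52 Nos2 UMIs of Y1 lay in 1 cell.

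The other epithelial genes did not pass the test for the YAP effect. Ptgs2 was 38.45 and 20.1 CPM in N, 15.3 and 10.4 in E, 20.2 and 16.5 in Y, and 24.2 and 20.8 in EY with N1 above the other 7 libraries (YAP effect 0.11 ± 0.22, edgeR adjusted p 0.764). Tgfb1 was between 23.8 and 34.3 CPM (YAP effect 0.08 ± 0.14, edgeR adjusted p 0.727). Cd274 was between 1.03 and 4.16 CPM (YAP effect 0.42 ± 0.35, edgeR adjusted p 0.432). In Arg1 1 cell held 81 of the 166 UMIs of N2 and 1 cell 103 of the 175 UMIs of Y1. In lymphoid cells, tested for the YAP effect after the data were seen, edgeR called 0 of 7 members (all genes 0%) and DESeq2 called Il4i1. An unadjusted edgeR p under 0.05 was found for 4 of the 7 and for 1229 of all 10251 genes. In epithelial cells for EY against N edgeR called 0 of the 7 (all genes 14.5%) and DESeq2 called Nos2. Of the 7, 3 had an unadjusted edgeR p under 0.05 in that contrast, as did 4998 of all 13589 genes.

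**Figure D5:**
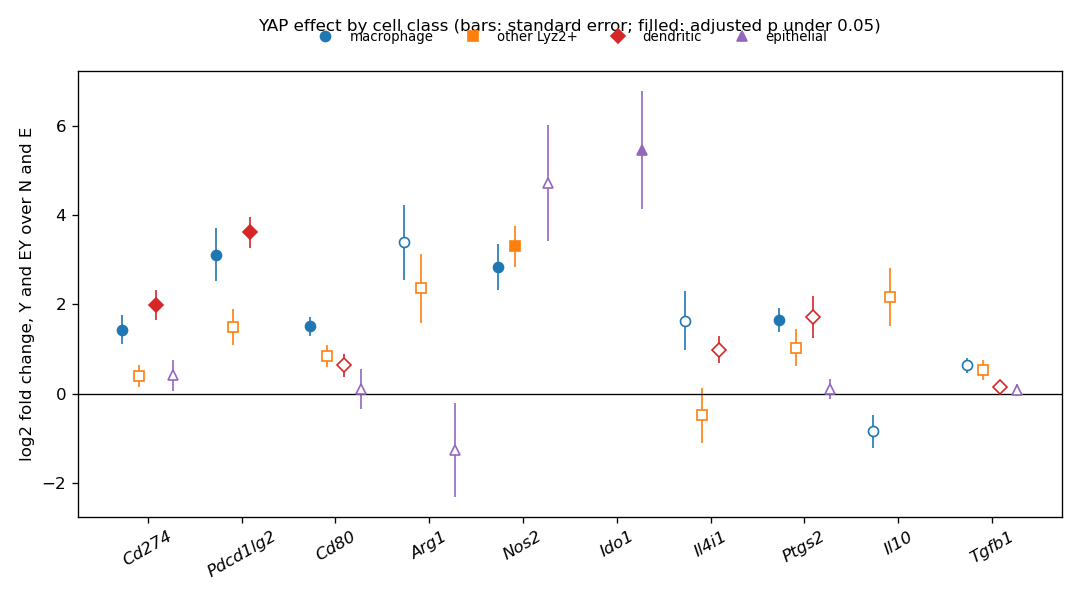
YAP effect of each tested gene by cell class (y axis: log2 difference of Y and EY over N and E; points are estimates, bars standard errors, filled points have an edgeR adjusted p under 0.05). The filled points are Cd274, Pdcd1lg2, Cd80, Nos2 and Ptgs2 in macrophages, Nos2 in other Lyz2-positive cells, Cd274 and Pdcd1lg2 in dendritic cells and Ido1 in epithelial cells.

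Related genes were counted from 5 lists in the same fits, where 3.90% of all genes were called in macrophages for the YAP effect. In macrophages the YAP effect was called higher for 3 and lower for 1 of 24 tested genes among receptors, partner enzymes and activators of the members (list median -0.14, all genes -0.03 on the log2 scale). Arg2, the second arginase (2.29 ± 0.44), Tgfb3 (2.84 ± 0.56) and Slc7a2, an arginine transporter (1.95 ± 0.41), rose, and Hpgd, which inactivates prostaglandins, fell by 2.45 ± 0.44. Of 15 interferon gamma response genes edgeR called 0 (list median 0.56), with Socs3 at 0.74 ± 0.17 (edgeR adjusted p 0.0530). Of 14 alternative activation genes Il4ra (1.29 ± 0.22) and Mrc1 (1.30 ± 0.25) rose (list median 0.77). Of 21 other suppressive or checkpoint genes Vegfa (1.49 ± 0.18) and Il1rn (1.35 ± 0.24) rose (list median 0.41). Of 20 myeloid suppressor-cell genes 7 rose, among them S100a9 (5.80 ± 0.76), Cxcr2 (3.58 ± 0.53) and Slc2a1 (1.63 ± 0.24), and Ccl2 fell by 1.48 ± 0.21 (list median 1.105). S100a9 and Cxcr2 are also neutrophil markers.

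In dendritic cells, where 4.70% of all genes were called for EY against N, 2 of 15 interferon gamma response genes were called in that contrast (list median 0.99, all genes -0.01 on the log2 scale), Gbp5 (3.74 ± 0.86) and Cxcl10 (3.60 ± 0.89). The E6-E7 effect was 2.92 ± 0.55 for Cxcl10 and 2.50 ± 0.55 for Gbp5, and both were called. Ass1, which regenerates arginine from citrulline, was called for EY against N (2.05 ± 0.26), as the 1 of 20 partner genes. Among the other suppressive genes Il1rn (4.29 ± 0.62), Lilrb4a (2.60 ± 0.40) and Vegfa (2.69 ± 0.54) were higher and Spp1 was lower (-4.06 ± 0.55) in EY than in N. Of the 20 myeloid suppressor-cell genes 9 were higher and 1 lower, with Saa3 (7.96 ± 0.80), S100a8 (5.86 ± 0.86), Clec4e (4.44 ± 0.63) and Il1b (1.62 ± 0.22) named by the smallest p. The 15 neutrophil markers summed to 254 and 439 CPM in the N dendritic cells, 332 and 187 in E, 820 and 529 in Y, and 1958 and 1225 in EY, with 3 to 11 of the 15 at 0 in each library. Their part in these counts was not tested.

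Across the 45 sums of a class in a library, each member was set against 13298 other genes by the Pearson correlation of log2(CPM + 1). These sums share libraries and classes, so that the values describe likeness of pattern alone. Cd274 was most like Lilrb4a (0.952), an inhibitory receptor of myeloid cells, and Lilr4b (0.948), and Cd80 was most like Plek (0.970). Nos2 was most like Il1a (0.910) and Inhba (0.903), and Ptgs2 most like Il1rn (0.918). Il4i1 was most like Kmo (0.884), Zfp366 (0.872) and Ccl22 (0.870), genes known from dendritic cells. Pdcd1lg2 was most like Tnfrsf9 (0.854), Arg1 most like Ms4a4a (0.868), Il10 most like Cela1 (0.848) and Tgfb1 most like Matk (0.959). Ido1, with 78 UMIs, was not compared.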

How the data were processed

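Per the labels and the methods of the study, sorted tongue epithelial cells were profiled in 10x Genomics droplets, and the authors aligned reads to mm10 with Cell Ranger and deposited 1 matrix of raw UMI counts per library, without cell type calls. The genes and gene lists were chosen with earlier results of these data known, and every test runs across all genes.

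Cells with 1000 to 5500 genes, up to 30000 UMIs and a mitochondrial share up to 7% were kept. Cells with at least 5 C1q UMIs were macrophages. Of the rest, cells with at least 1% of UMIs in epithelial markers and under 5 immune UMIs were epithelial. Immune cells under that epithelial limit were assigned in turn as neutrophils (at least 1% in S100a8 and S100a9 and 1% in the other neutrophil markers), dendritic cells (0.05% in dendritic markers and 0.5% in MHC class II genes), lymphoid cells (10 lymphoid UMIs and under 3 Lyz2 UMIs) and other Lyz2-positive cells (3 Lyz2 UMIs and under 5 lymphoid UMIs). Mixed (328), other immune (867) and unassigned (278) cells were not analysed. Scrublet called 125 of 25199 cells (0.496%), a share too low to count as working, so doublets were not removed.

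UMI counts were summed per class and library where at least 20 cells were present, and tested with edgeR 4.0.16 (TMM, quasi-likelihood F-test, R 4.3.3, limma 3.58.1), with 4 groups in the model, or with the library as a block between classes. P-values were adjusted over all genes by Benjamini-Hochberg, and 0.05 was the threshold. CPM are counts-per-million of the summed UMIs of the class in that library. DESeq2 1.42.0 was an alternative test. The others were DESeq2 size factors, no low-count filter, cells with 200 genes, no upper limits, Scrublet calls removed, C1q limits of 3 and 10, keratin-positive cells removed and each library left out. Macrophages without Chil3, the neutrophil fits beyond the plain values, and the lymphoid fit were added after the data were seen. The fitting code was tested on simulated data. Python 3.11.15, numpy 2.4.6, pandas 2.3.3, scipy 1.17.1, scanpy 1.11.5 and matplotlib 3.10.9 served for the rest.

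All 10 members are named, together with up to 4 genes of each related list with the smallest p in a contrast and up to 3 genes most like each member. Of the 32285 gene identifiers 32158 were found in GENCODE M21. Upstream sequences are from RefSeq (GRCm38.p6). One result of a related list is not reported here.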

Additional observations from a re-analysis of the deposited data

Results flagged for a closer look

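In lymphoid cells, a class outside the comparisons, Il4i1 was 1.29 and 0.750 CPM in N, 3.35 and 1.10 in E, 17.2 and 16.5 in Y, and 31.3 and 13.1 in EY. Every Y and EY value was over those of N and E, with a YAP effect of 4.08 ± 0.43 on the log2 scale that did not pass the test (edgeR adjusted p 0.0524), while DESeq2 called it. Cd80 in lymphoid cells was 4.50 and 7.20 CPM in N, 10.7 and 7.25 in E, 13.5 and 12.8 in Y, and 14.85 and 14.2 in EY. Its libraries did not overlap either, with a YAP effect of 1.01 ± 0.25 (edgeR adjusted p 0.169). In the same cells the 13 dendritic markers summed to 81.7 and 161 CPM in N, 106 and 66.2 in E, 284 and 306 in Y, and 409 and 438 in EY, with 1 to 5 of them at 0. The 15 neutrophil markers summed to 80.1 to 183 CPM in N and E and 258 to 1767 CPM in Y and EY, with 0 to 5 at 0. Their part in the values of Il4i1 and Cd80 was not tested. Both genes are listed because their libraries with and without the transgene did not overlap, in cells on which no comparison was planned. They are 2 of the 7 members tested there, and the share of all genes without overlap was not counted in lymphoid cells. In this fit edgeR called 0 of 10251 genes for the YAP effect.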

How the results depend on the processing

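Of 552 values for 37 member results under an alternative, 471 kept direction and call, 81 kept the direction with the call lost, and 0 reversed. In macrophages the count of members called for the YAP effect, 5, was 0 to 6 with a library left out, 9 with no low-count filter and 0 in cells without a Chil3 UMI. For EY against N, 2, it was 0 to 3 with a library left out, 7 with no filter, 5 by DESeq2, 0 without upper limits on genes and UMIs, 4 with Scrublet calls removed, 0 with a C1q limit of 10 UMIs, 5 with keratin-positive cells removed and 0 without a Chil3 UMI.

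In other Lyz2-positive cells the YAP effect count, 1, was 6 with no low-count filter and 2 by DESeq2, and 1 with each library left out. For EY against N, 1, it was 4, 2 and 0 to 1. In epithelial cells the count, 1, was 2 with DESeq2 size factors, 3 with no filter, 2 by DESeq2, 2 at 200 genes, 2 without upper limits and 0 to 2 with a library left out. In dendritic cells the EY against N count, 4, was 1 to 5 with a library left out. The YAP effect count, 2, was 5 with no filter, 4 without upper limits and 1 to 3 with a library left out, and the E6-E7 count, 3, was 0 to 3. In neutrophils the log2 ratio of mean Nos2 CPM was 1.79 at 1000 genes and 3.76 at 200 genes. Counts between classes stayed within 1.5 times. For these alternative counts, apart from the YAP effect count without a Chil3 UMI, no share of all genes called is given. The causes were not tested.

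No paired analysis was possible because the labels give no replicate numbers shared between groups. With N2 left out, neutrophils had no N library to fit. Few UMIs were counted for Ido1 in every class and for Arg1 and Il10 in dendritic cells, where a low level and limited depth cannot be told apart.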
